A study of Chlamydomonas reinhardtii with 12 samples.

Results

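The 10 genes described here encode the best known inducible parts of the carbon concentrating mechanism of the green alga Chlamydomonas reinhardtii: the carbonic anhydrases CAH1, CAH4 and CAH5, the membrane proteins LCI1, HLA3 and LCIA, the stromal proteins LCIB and LCIC, and the carrier proteins CCP1 and CCP2. They were chosen by gene symbol from a table of 19505 transcripts of 17741 loci of genome version 5.5. Each of the 10 symbols matched 1 locus with 1 transcript, and the coordinates of all 10 equalled those of the RefSeq annotation of the same assembly. Of the 17741 loci, 10915 reached 1 FPKM (a fragment count divided by transcript length and by the size of the library) in at least 1 group and are called measured loci here. Of the 10 genes 9 were measured and HLA3 was not. LCI1 and LCIA were measured through a single group each, the one in which they were highest, so counts over the measured genes describe them and support nothing further.

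The study compared the wild type CC-124 with amiCYG12, a transformant of CC-124 in which an artificial microRNA lowers the transcript of the soluble guanylate cyclase gene CYG12. Each strain was grown at 20 °C in TAP, an acetate medium, under continuous illumination (20 µmol of photons per m2 and s) (the standard incubation), and then kept for 6 h in darkness, either in open stirred beakers (dark aerated) or in sealed flasks that turned anoxic (dark anoxia). The 6 groups held 2 biological replicates each, 12 libraries in all, made from poly(A) RNA with a stranded kit. The series describes amiCYG12 as a single transformant. The labels name neither the promoter that drives its microRNA nor the CO2 level of the cultures. All groups came from cultures grown with acetate. The 2 dark incubations were alternatives, so a step or fall from dark aerated to dark anoxia compares separate cells. Light and elapsed time change together between the standard and the dark incubations, and open beakers and sealed flasks differ in the exchange of every gas, so the shares of these factors cannot be told apart.

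The carbon concentrating mechanism raises the CO2 level around Rubisco, the enzyme that fixes CO2, inside the pyrenoid of the chloroplast. Transporters at the plasma membrane and the chloroplast envelope bring in bicarbonate, and carbonic anhydrases convert bicarbonate and CO2 into each other at several places along the way. In this alga many of its genes are known to be switched on by low CO2 in the light through the regulator CCM1, also called CIA5, and to be expressed weakly in acetate medium or at high CO2.

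The authors' deposited table holds 1 pooled FPKM value per group and no value per library, so no spread between replicates can be given and the depth behind each value is unknown. FPKM is scaled to transcript length, which allows levels of different genes to be set side by side. "Fell", "rose", "lower" and "higher" are used of a gene only where the authors called the difference significant in that table, at a q-value of up to 0.05. Log2 changes were computed here from the FPKM ratio after adding 1 to each value, and they understate the change of genes near or under 1 FPKM. Fold values are ratios of the FPKM values without the added 1. The target of the microRNA had 0.132, 3.23 and 2.46 FPKM in wild type cells, with 0.158, 0.353 and 0.429 FPKM in amiCYG12 (CYG12, in the order standard, dark aerated, dark anoxia), so the strain labels could be checked after the dark incubations and not in the standard one.

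In the wild type several of the 10 genes fell in darkness and 0 rose. After 6 h of dark aerated incubation CAH1, CAH5, LCIA, LCIB and CCP2 were called lower than in the standard incubation, which is 5 of the 9 measured and tested genes, against a background of 6.75 percent of all measured loci called lower and 4.28 percent called higher. The median log2 change of the 9 genes was -0.86, beside -0.052 for all loci tested. The calls of LCIA and CCP2 were lost when the deposited p-values were adjusted within this comparison alone, which left 3 genes. LCI1 had a log2 value of -3.00, but its q-value in the authors' deposited table was 0.0513 and it was not called. LCIC, with a log2 value of -0.86 and a q-value of 0.0560 in the authors' deposited table, also stood close to the threshold.

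Wild type cells in dark anoxia were lower than dark aerated ones in 3 of 7 tested genes, CAH1, CAH5 and CCP1. CCP1 reached 1 FPKM only in the wild type standard and dark aerated groups. These are the higher sides of this comparison and of that from standard to anoxia, so its part in both counts is a description. The background was 7.96 percent of loci called lower and 6.88 percent called higher. The log2 changes of CAH1, CAH5 and CCP1 from dark aerated to dark anoxia were -1.26, -1.15 and -1.03. The median of the 9 measured genes, with LCI1 and LCIA included though not tested, was -0.52, beside -0.012 for all loci. From the standard incubation to dark anoxia 7 of 9 tested genes fell, at a background of 15.9 percent lower and 11.5 percent higher. Here the 2 genes without a call were LCI1 and LCIA. The median of the 9 genes was -1.37, beside -0.064 for all loci. These comparisons share groups with each other, so their counts are not independent.

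In amiCYG12 the calls were spread otherwise over the same comparisons. From standard to dark aerated 0 of 8 tested genes were called in either direction, at a background of 9.78 percent of loci called lower and 4.13 percent called higher. The median log2 change of the 9 measured genes, with LCI1 included though not tested, was 0.034, beside -0.068 for all loci. From dark aerated to dark anoxia 8 of 8 tested genes fell, at a background of 12.9 percent lower and 12.9 percent higher. LCIA had passed the minimum through the dark aerated amiCYG12 group alone, so its part in this count supports nothing. The median of the 9 measured genes was -1.28, beside -0.024 for all loci. From standard to dark anoxia 8 of 8 fell as well, at a background of 15.7 percent lower and 9.27 percent higher. LCI1 was not tested by the authors in any of the 3 comparisons within amiCYG12.

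**Figure D1:**
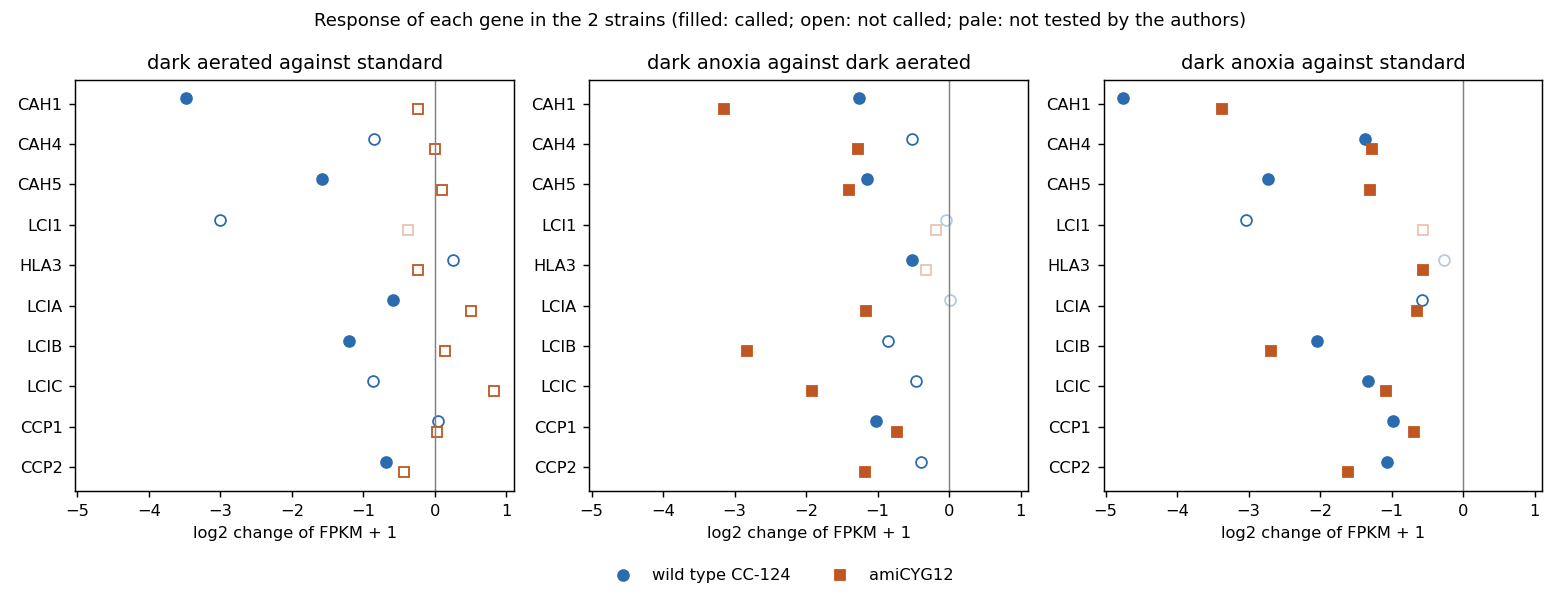
Log2 change of FPKM plus 1 (x axis) of each of the 10 genes (rows) in wild type (blue circles) and amiCYG12 (orange squares) for the 3 pairs of incubations, filled where the authors called the change, open where they did not and pale where they did not test it. In the panel on the left the wild type points lie mostly left of 0 and the amiCYG12 points around 0, while in the middle panel the amiCYG12 points lie left of the wild type points for all genes but CCP1 and HLA3.

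Set strain against strain, the genes called were not the same in each incubation. In the standard incubation 4 of 9 tested genes were lower in amiCYG12, CAH1, CAH4, CAH5 and LCI1, and 1 was higher, CCP2, at a background of 5.04 percent of loci called lower and 5.49 percent called higher. The call of CCP2 was lost when p-values were adjusted within this comparison alone. After the dark aerated incubation 1 of 8 tested genes was lower, CAH4, and 3 were higher, LCIA, LCIC and CCP2, at a background of 10.8 percent lower and 8.2 percent higher. Under dark anoxia 3 of 7 tested genes were lower, CAH1, CAH4 and LCIB, and 0 were higher, at a background of 9.13 percent lower and 5.73 percent higher. The medians of the 9 measured genes, untested ones included, were -0.76, 0.11 and -0.13 in this order, beside -0.044, -0.060 and -0.044 for all loci. LCI1 in the standard and LCIA in the dark aerated incubation had passed the minimum through the group in which they were higher, so their part in these counts supports nothing. CAH4 was lower in amiCYG12 in every incubation, the only one of the 10 genes called in all 3 strain comparisons.

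**Figure D2:**
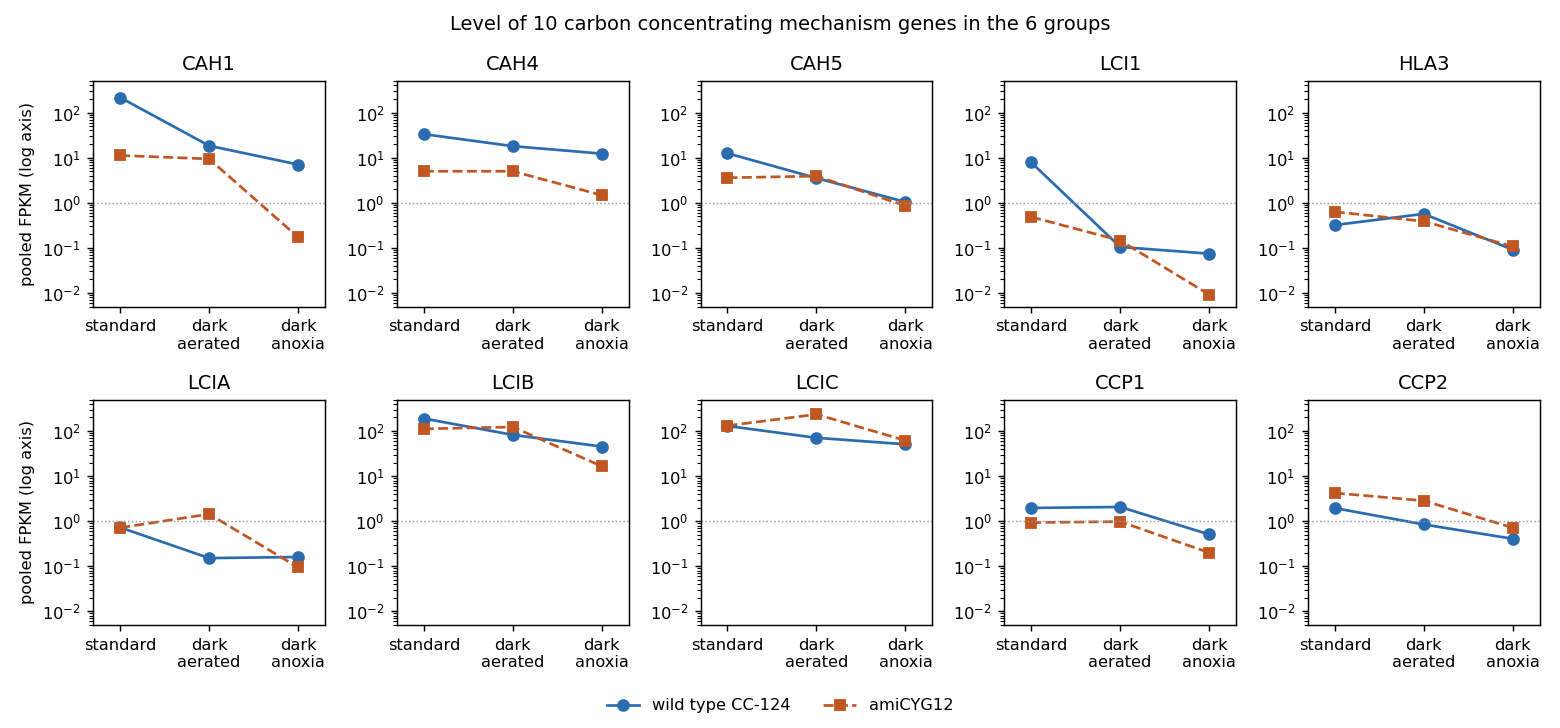
Pooled FPKM (log axis) of each gene in the 6 groups, with wild type as blue circles and solid lines and amiCYG12 as orange squares and dashed lines; lines join the incubations of a strain, there are no error bars because the table holds 1 value per group, and the dotted line marks 1 FPKM. CAH1 and LCI1 of the wild type start far above every other group of the same gene, and HLA3 stays under 1 FPKM throughout.

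CAH1 (Cre04.g223100, chromosome 4, 2662125 to 2666375) encodes the periplasmic carbonic anhydrase that is the classic marker of the low CO2 state. Its FPKM in the wild type was 215.6 in the standard incubation, 18.3 after dark aerated and 7.04 after dark anoxic incubation. In amiCYG12 it was 11.2, 9.37 and 0.172. One group thus stood apart at the top, the wild type in the light, and one at the bottom, amiCYG12 under anoxia, with the other 4 between 7.04 and 18.3 FPKM. Ranked among the 10915 measured loci CAH1 went from place 302 in the wild type standard group to place 10812 in anoxic amiCYG12, the widest span of FPKM among the 10 genes. In the wild type CAH1 fell 11.8-fold in aerated darkness, and was 2.60-fold lower in dark anoxia than in dark aerated cells. In amiCYG12 the ratio of standard to dark aerated was 1.19 and was not called, and the fall from dark aerated to anoxia was 54.5-fold. Between the strains CAH1 was 19.3-fold lower in amiCYG12 in the standard incubation and 41.0-fold lower under anoxia, and after the dark aerated incubation the difference of 1.96-fold was not called (q-value of 0.0759 in the authors' deposited table).

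CAH4 (Cre05.g248400, chromosome 5, 772398 to 774699) and CAH5 (Cre05.g248450, chromosome 5, 768025 to 770332) encode mitochondrial carbonic anhydrases of nearly identical sequence. They lie next to each other, both within 6675 bases. The handling of reads that fit more than 1 gene was not given in the sources at hand, so the split of reads between them is uncertain. CAH4 stood at 33.2, 17.98 and 12.3 FPKM in wild type cells, against 5.00, 4.99 and 1.47 FPKM in amiCYG12. Every wild type value of CAH4 was above every amiCYG12 value. The strain ratio of CAH4 was 6.65, 3.60 and 8.34 in the standard, dark aerated and anoxic incubations. CAH5 had 12.5, 3.53 and 1.04 FPKM in wild type cells, with 3.59, 3.89 and 0.857 FPKM in amiCYG12. For CAH5 the wild type standard group alone was high, and after both dark incubations the strains lay within 1.21-fold of each other without a call. From standard to anoxia CAH4 fell 2.71-fold in the wild type and 3.40-fold in amiCYG12, and CAH5 fell 12.0-fold and 4.19-fold.

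The ratio of CAH4 to CAH5 separated the strains further. It was 2.66, 5.10 and 11.8 in the wild type, and 1.39, 1.28 and 1.72 in amiCYG12. So in the wild type CAH5 lost relatively more than CAH4 at each step, and in amiCYG12 the ratio moved little. Taken as a sum, CAH4 and CAH5 together gave 45.7, 21.5 and 13.3 FPKM in wild type cells, against 8.58, 8.88 and 2.33 FPKM in amiCYG12. A sum lessens the effect of how reads were divided between them. Shared reads that were dropped, or counted at both genes, would still change it. The sum was lower in amiCYG12 in all 3 incubations, and no test can be given for a ratio or a sum of pooled values.

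LCI1 (Cre03.g162800, chromosome 3, 2885264 to 2887871) encodes a plasma membrane protein for the uptake of inorganic carbon. It reached 7.86 FPKM in the wild type standard group, and was at 0.105 and 0.0743 FPKM after dark aerated and dark anoxic incubation. In amiCYG12 it stood at 0.485, 0.145 and 0.00920 FPKM. LCI1 was therefore well detected in a single group, the wild type in the light. Its level in amiCYG12 under the standard incubation was 16.2-fold lower, which was called with a q-value of 0.000623 in the authors' deposited table. Between the wild type standard and dark groups the ratios were larger still, 75.2 and 105.8, yet neither was called, and the 5 other groups lie too low for a comparison among them.

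HLA3 (Cre02.g097800, chromosome 2, 4110306 to 4117464), also named MRP1 in the table, encodes an ABC transporter that carries bicarbonate across the plasma membrane. It stayed low, with 0.320, 0.566 and 0.0907 FPKM in wild type cells, with 0.629, 0.388 and 0.107 FPKM in amiCYG12. The 2 anoxic groups were the lowest. HLA3 was called lower in dark anoxia than in dark aerated wild type cells (q-value of 0.00561 in the authors' deposited table) and lower in dark anoxia than in standard amiCYG12 cells (q-value of 0.00428 in the authors' deposited table). It was not called in any of the other 4 comparisons in which the authors tested it, which included the strains in the standard and the dark aerated incubation.

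LCIA (Cre06.g309000, chromosome 6, 8604782 to 8607670) encodes a bicarbonate channel of the chloroplast envelope from the formate and nitrite transporter family, and carries the second name NAR1.2. Its FPKM was 0.729, 0.152 and 0.161 in the wild type and 0.718, 1.44 and 0.0946 in amiCYG12. The strains had nearly the same value in the standard incubation and lay apart after the dark aerated one, where the amiCYG12 value was the highest of the 6 groups and the wild type value among the lowest. In the dark aerated incubation LCIA was 9.47-fold higher in amiCYG12, with a q-value of 0.00714 in the authors' deposited table. From dark aerated to anoxia it fell 15.2-fold in amiCYG12, while in the wild type the authors did not test that step. All these values lie close to or under 1 FPKM.

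LCIB (Cre10.g452800, chromosome 10, 4608866 to 4611901) and LCIC (Cre06.g307500, chromosome 6, 8466076 to 8469153) encode partner proteins of a stromal complex that sits around the pyrenoid when CO2 is very low and keeps CO2 from leaking away. They were the most abundant of the 10 genes in every group except the wild type standard group, where CAH1 was. LCIB stood at 189.6, 82.3 and 45.3 FPKM in wild type cells, against 111.7, 123.3 and 16.5 FPKM in amiCYG12. Its anoxic amiCYG12 value was the lowest of the 6, and its wild type standard value the highest. The step from dark aerated to anoxia was a 7.47-fold fall in amiCYG12 and a 1.82-fold difference that was not called in the wild type. Under anoxia LCIB was 2.74-fold lower in amiCYG12 (q-value of 0.00160 in the authors' deposited table).

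LCIC reached 129.6, 70.8 and 50.9 FPKM in wild type cells, with 131.7, 234.7 and 61.7 FPKM in amiCYG12. The strains had nearly the same level in the standard incubation, and the dark aerated amiCYG12 group was the highest of the 6 and ranked 221 among the measured loci. There LCIC was 3.32-fold higher in amiCYG12. Its own rise within amiCYG12 from the standard incubation, 1.78-fold, was not called (q-value of 0.0792 in the authors' deposited table), and its fall from dark aerated to anoxia was 3.81-fold. Because LCIB and LCIC are partners, their ratio is given beside their levels. LCIB over LCIC was 1.46, 1.16 and 0.890 in the wild type and 0.848, 0.526 and 0.268 in amiCYG12. The ratio was lower in amiCYG12 in every incubation, and in both strains it was highest in the standard incubation and lowest in dark anoxia. LCIC lies on chromosome 6, where the median strain log2 change of all tested loci was 0.62, 0.64 and 0.59 in the 3 incubations, while on chromosome 10, which holds LCIB, it was -0.088, -0.11 and -0.091. The part of this gap in the strain difference of the ratio was not tested.

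CCP1 (Cre04.g223300, chromosome 4, 2690711 to 2693793) and CCP2 (Cre04.g222750, chromosome 4, 2617297 to 2620361) encode near-identical proteins of the mitochondrial carrier family that accumulate at low CO2; the table describes them as chloroplast envelope proteins. The split of reads between them is uncertain for the same reason as for CAH4 and CAH5. CCP1 had 1.97, 2.07 and 0.510 FPKM in wild type cells, against 0.936, 0.983 and 0.201 FPKM in amiCYG12. CCP2 had 1.96, 0.849 and 0.408 FPKM in wild type cells, with 4.23, 2.86 and 0.715 FPKM in amiCYG12. In each incubation CCP1 thus had the larger value in the wild type and CCP2 in amiCYG12, with calls for CCP2 in the standard and the dark aerated incubation and none for CCP1. The ratio of CCP2 to CCP1 was 0.991, 0.410 and 0.801 in the wild type and 4.52, 2.91 and 3.56 in amiCYG12.

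Added up, CCP1 and CCP2 amounted to 3.93, 2.92 and 0.918 FPKM in wild type cells, against 5.16, 3.84 and 0.916 FPKM in amiCYG12. The sums of the strains lay closer together than the values of either gene in the standard and the dark aerated incubation, and they coincided nearly under anoxia. CCP1 fell 4.07-fold from dark aerated to anoxia in the wild type and 4.90-fold in amiCYG12, and its step from standard to dark aerated was 1.05-fold in both strains without a call. This made CCP1 the measured gene with the least change in aerated darkness in the wild type.

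**Figure D3:**
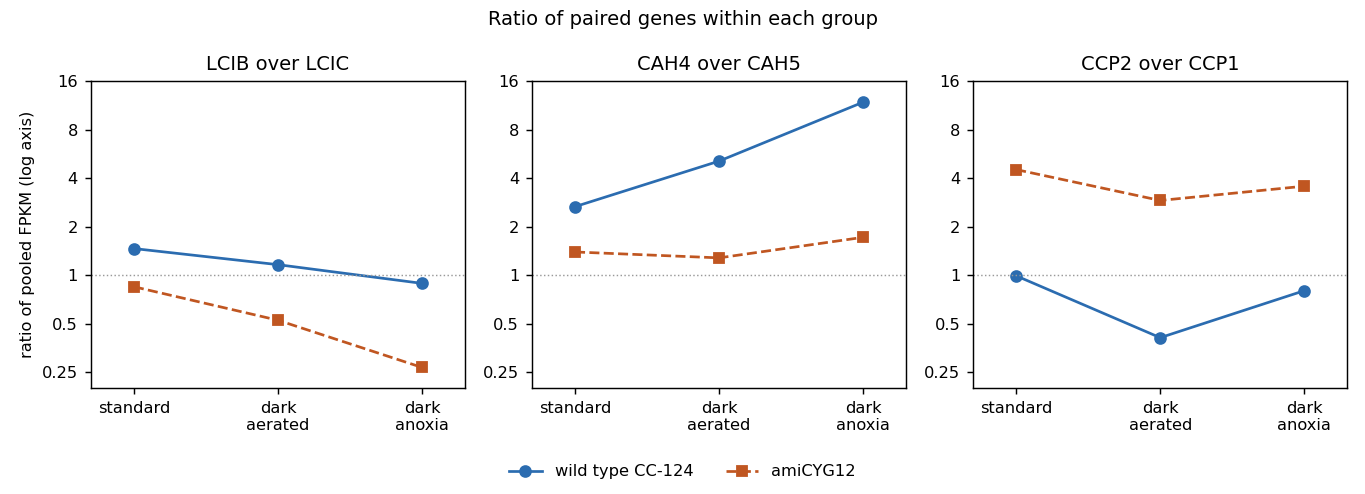
Ratio of pooled FPKM (log axis) of LCIB over LCIC, CAH4 over CAH5 and CCP2 over CCP1 in the 3 incubations, wild type as blue circles and amiCYG12 as orange squares, 1 value per group and no error bars; the dotted line marks equal levels. CAH4 over CAH5 goes from 2.66 to 11.8 in the wild type and stays between 1.28 and 1.72 in amiCYG12, and the strains do not cross in any panel.

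A gene called in one strain and not in the other is not shown to respond differently, so the difference of the responses was tested itself. The 2 deposited log2 changes were subtracted and set over a standard error recovered from the deposited p-values, with Benjamini-Hochberg adjustment over all loci tested. For the step from standard to dark aerated the difference (amiCYG12 minus wild type) was 3.30 for CAH1, with an SE of 0.97 and an adjusted p of 0.0390. It was 1.71 for LCIC, with an SE of 0.51 and an adjusted p of 0.0423. Both were called, at a background of 0.826 percent of loci called more positive in amiCYG12 and 1.33 percent more negative. CAH5 had a difference of 1.94 with an adjusted p of 0.0566 and LCIB one of 1.35 with an adjusted p of 0.151, and neither was called, nor were CAH4, CCP1 and CCP2. LCIA had a difference of 3.27, which is given as a value and not as a test, because LCIA reached 1 FPKM only in the dark aerated amiCYG12 group that enters this difference. LCI1 and HLA3 could not be tested.

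For the step from dark aerated to anoxia LCIB alone was called, with a difference of -2.04, an SE of 0.52 and an adjusted p of 0.0307, at a background of 0.394 percent of loci more negative in amiCYG12 and 0.309 percent more positive. The size of the difference was larger for CAH1, -4.39, with a recovered SE of 1.39 and an adjusted p of 0.0991. That SE is an upper bound and not a measured error. The deposited p-value of CAH1 was 5e-05, the smallest in use, for this step in amiCYG12 and between the strains under anoxia. The missing call of CAH1 therefore decides nothing. LCIC had a difference of -1.45 with an adjusted p of 0.202. For the whole way from standard to anoxia none of the 8 tested genes was called, and the background was 0.159 percent more positive and 0.384 percent more negative. For that response CAH5 had the lowest unadjusted p of the 8 genes, 0.0282. With the larger of the 2 error estimates CAH1, LCIC and LCIB were not called, and LCIA, for which a single estimate could be had, was not tested.

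Both LCIA and LCIC lie on chromosome 6, on which transcripts of amiCYG12 were shifted up as a whole. The median strain log2 change of the loci tested on chromosome 6 was 0.62, 0.64 and 0.59 in the standard, dark aerated and anoxic incubations, while the medians of the other 16 chromosomes lay between -0.24 and -0.038. On chromosome 6 37.6, 42.5 and 37.5 percent of tested loci were called higher in amiCYG12. Measured against their own chromosome, the log2 strain changes of LCIC were -0.60, 1.08 and -0.32, and those of LCIA were -0.63, 0.45 and -0.67. After the dark aerated incubation both genes thus stood above the median of their chromosome, and in the other incubations under it. For LCIC the direction in the standard and anoxic incubations differs from that of its log2 changes without this subtraction, 0.023 and 0.27, neither of them called. In the dark response the chromosome did not stand apart: the median difference of the response was 0.020 over 1115 loci of chromosome 6 and -0.025 over the others. The part of the chromosome's shift in the calls of LCIA and LCIC between strains was not tested beyond these values.

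**Figure D4:**
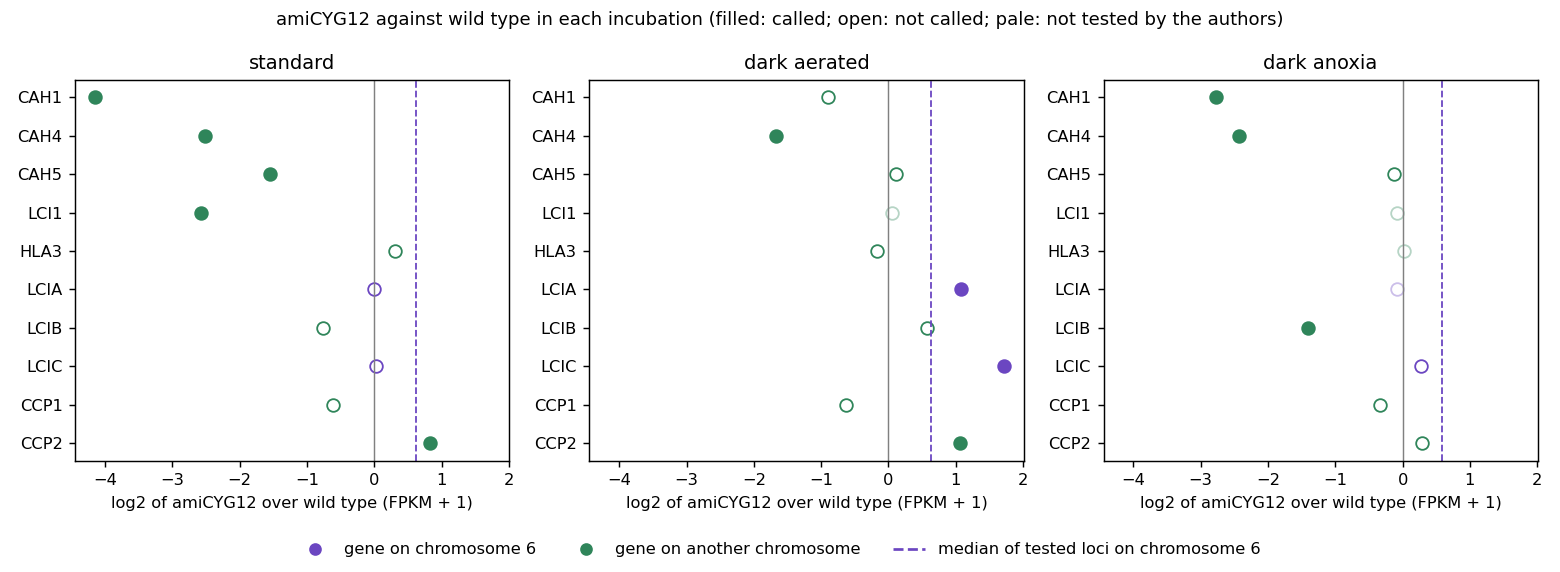
Log2 of amiCYG12 over wild type after adding 1 FPKM (x axis) for each gene (rows) in the 3 incubations, filled where called, open where not and pale where not tested, with genes on chromosome 6 in purple and the others in green; the dashed line is the median of the loci tested on chromosome 6. LCIC and LCIA lie right of that line after the dark aerated incubation and left of it in the other incubations.

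The stretch from LCIC to LCIA spans 141595 bases and 30 loci, of which 27 were measured. Among the other loci of this stretch 9 of 25 tested were higher in amiCYG12 in the standard incubation and 0 lower. After the dark aerated one 10 of 24 were higher and 2 lower, and under anoxia 4 of 25 were higher and 2 lower. Of all tested loci on chromosome 6, 37.6, 42.5 and 37.5 percent were higher, beside 5.49, 8.2 and 5.73 percent of all loci. Lower on chromosome 6 were 13 of 1085, 33 of 1099 and 31 of 1076 tested loci. The share called higher in the stretch thus did not exceed that of its chromosome in any incubation. On chromosome 4 CCP2, CAH1 and CCP1 lie in this order on a stretch of 76497 bases with 12 loci, which also holds CAH2 and the LCIB relatives LCID and LCIE. Over all loci 4.28 percent rose and 6.75 percent fell in aerated darkness in the wild type. The 7 other tested loci of the chromosome 4 stretch held 1 gene that rose and 0 that fell. That gene was CAH2, a second periplasmic carbonic anhydrase directly beside CAH1, which went from 8.06 to 17.6 FPKM while CAH1 fell from 215.6 to 18.3. In amiCYG12 CAH2 had 3.40 and 6.06 FPKM in these groups without a call. CAH1 and CAH2 are close copies of each other, so the split of reads between them is uncertain too.

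Of the other carbonic anhydrases 8 loci were found and measured. In aerated darkness 3 of them rose and 1 fell in the wild type, while 0 rose and 1 fell in amiCYG12. Over all loci 4.28 percent rose and 6.75 percent fell in wild type cells, with 4.13 and 9.78 percent in amiCYG12, so that 1 of 8 lower is near the background. The wild type rises were those of CAH8, from 41.8 to 96.5 FPKM, of CAH7, from 7.88 to 21.3 FPKM, and of CAH2. These 3 carbonic anhydrases moved opposite to CAH1 and CAH5. The gene that fell was CAH3, which encodes the carbonic anhydrase of the thylakoid lumen. CAH3 had 87.2, 43.1 and 21.4 FPKM in wild type cells, with 64.3, 44.2 and 19.6 FPKM in amiCYG12, so that its levels after the dark incubations were alike in the strains, and 0 strain comparisons of CAH3 were called. Between the strains 4 of the 8 were lower in amiCYG12 after the dark aerated incubation and 1 was higher, beside 10.8 and 8.2 percent of all loci, and 4 were lower and 0 higher under anoxia, beside 9.13 and 5.73 percent. CAH2, CAH7 and CAH8 were lower in both incubations. The higher gene was CAG2, which lies on chromosome 6 and had a strain log2 change of 1.36.

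Among other transport proteins and relatives of LCIB 9 loci were found and 6 measured. LCI11, a bestrophin-like channel of the thylakoid, had 9.23, 7.58 and 4.65 FPKM in wild type cells, against 2.08, 4.18 and 0.616 FPKM in amiCYG12. RHP1, a Rhesus protein known for CO2 transport at high CO2, had 26.9, 21.3 and 56.0 FPKM in wild type cells, where it rose from dark aerated to anoxia by a log2 of 1.35. In the same step CAH1, CAH5 and CCP1 fell. NAR1.3 and NAR1.5, relatives of LCIA, were each called in 3 of the 9 comparisons, and the step from dark aerated to anoxia in amiCYG12 was 0.86 for the former and -1.06 for the latter.

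Of the regulators 3 loci were found. The master regulator CCM1 had 5.12, 9.49 and 14.8 FPKM in wild type cells, with 6.88, 12.5 and 12.8 FPKM in amiCYG12, with no call in any comparison. Its values were lowest in the standard groups, where CAH1 and LCI1 of the wild type were highest. LCR1, a Myb factor known to act on CAH1 and LCI1, had 0.730, 0.405 and 0.0190 FPKM in wild type cells, against 0.0604, 0.444 and 0.00940 FPKM in amiCYG12. It lay under the minimum in every group and was called lower in amiCYG12 in the standard incubation. CAS1, a calcium-binding thylakoid protein needed for full expression of HLA3 and LCIA, stood at 164.1, 150.5 and 149.2 FPKM in wild type cells, with 84.3, 69.1 and 23.6 FPKM in amiCYG12. CAS1 was lower in amiCYG12 in all 3 incubations. From dark aerated to anoxia it fell by 1.51 on the log2 scale in amiCYG12, and its value in the wild type was -0.013 without a call.

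Pyrenoid and Rubisco genes were represented by 6 measured loci. RBCS1, a small subunit of Rubisco, had 2157, 667.0 and 471.2 FPKM in wild type cells, against 1562, 724.9 and 352.2 FPKM in amiCYG12. It fell in aerated darkness in both strains. RBCS1 has a near-identical partner, RBCS2, so its share of the reads is uncertain. RMT1, a methyltransferase for Rubisco, fell in aerated darkness in the wild type, from 24.8 to 8.27 FPKM. From standard to anoxia 2 of the 6 were called lower in each strain, and 0 higher, beside 15.9 percent of all loci lower in the wild type and 15.7 percent in amiCYG12.

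Other genes named for induction at low CO2 moved in both directions. Of 16 measured loci 3 rose and 6 fell in the wild type from standard to anoxia, and 3 rose and 4 fell in amiCYG12. The shares of all loci were 11.5 percent higher and 15.9 percent lower in wild type cells, with 9.27 and 15.7 percent in amiCYG12. LCI9 fell in the wild type, with 25.4, 11.03 and 6.78 FPKM in the 3 incubations, while LCI30 and LCI34 rose, from 162.7 to 461.3 and from 12.2 to 66.4 FPKM. Photorespiration, the salvage of the side product of Rubisco's reaction with oxygen, was represented by 15 loci, all measured. Of these 5 fell and 0 rose in the wild type in aerated darkness, and 0 rose and 1 fell in amiCYG12, beside 6.75 and 9.78 percent of all loci called lower. From standard to anoxia 7 fell and 1 rose in the wild type and 9 fell and 0 rose in amiCYG12, beside 15.9 and 15.7 percent of all loci lower. SHMT2, a serine hydroxymethyltransferase, had 101.6, 52.5 and 6.19 FPKM in wild type cells, with 110.7, 52.0 and 11.4 FPKM in amiCYG12.

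**Figure D5:**
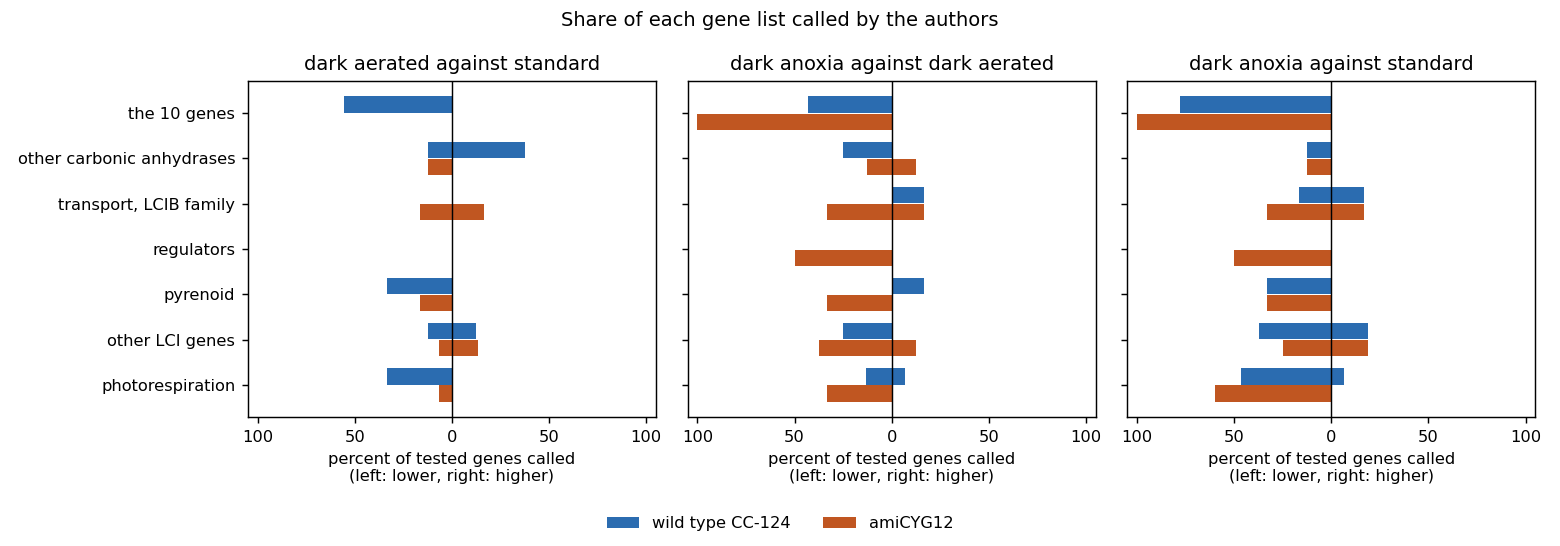
Percent of the tested, measured genes of each list that the authors called lower (bars to the left) or higher (bars to the right), in wild type (blue) and amiCYG12 (orange), for the 3 pairs of incubations. The bars of the 10 genes, of which up to 9 were measured and tested, point to the left alone, and are absent for amiCYG12 in the panel on the left.

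Among themselves the 10 genes followed more than one pattern over the 6 groups. CAH1 and CAH5 had a Pearson r of 0.92 on the log2 scale, and CAH5 and LCIB one of 0.89. LCIA and LCIC, the pair on chromosome 6, had an r of 0.98, while CAH1 had r values of 0.39 with LCIA and 0.38 with LCIC. These correlations are descriptions over 6 groups that share strain and incubation. The same holds for the loci named next, each picked as the highest r of its gene among all candidates. How high such a pick reaches without any link was not tested, so it does not show shared regulation. Of 1652 candidate loci with a symbol, the one most like CAH1 was SQD2, a sulfolipid synthase (r of 0.998), and the one most like CAH4 was POR1, the light-dependent protochlorophyllide reductase (r of 0.997). The loci closest to the others were NAT34 for CAH5, BIP2 for LCI1, MYO1 for LCIA, TPR2 for LCIB, MSRA2 for LCIC, GLD2 for CCP1 and HSP70B for CCP2, with r values from 0.980 to 0.999.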

How the data were processed

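Messenger RNA was measured in 12 libraries in 6 groups of 2, grouped from the sample labels. The authors deposited 1 table of genome version 5.5 (Phytozome 11, per the file headers), with a pooled FPKM value per group and, for each of 9 comparisons, the log2 fold change with its p-value and q-value, whether the test was run and whether the authors called it. CASAVA 1.8.2, Bowtie2 2.0.5, TopHat2 2.0.6, SAMtools 1.2 and Cufflinks 2.1.1 are named in the submitters' processing notes. No source at hand says whether the counting used strand. The deposited log2 values equalled the log2 ratio of the deposited FPKM values within 5.17e-05, and the smallest deposited p-value and q-value were 5e-05 and 0.000623. With group values alone, no error between replicates can be given and the depth is unknown.

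The most expressed transcript stood for each locus, with a minimum of 1 FPKM in a group. Own log2 changes used a pseudocount of 1 FPKM. Calls are the authors'. Standard errors were recovered as the absolute deposited log2 over the normal quantile of its p-value. Their median of 0.352 to 0.356 covers 2312 to 2707 loci per comparison, not all loci tested, and need not hold for the 10 genes. Where a p-value lay at the deposited minimum of 5e-05, the recovered error is an upper bound that grows with the log2 change. For a difference of responses the smaller of 2 estimates was used, 2-sided, with Benjamini-Hochberg adjustment at 0.05. On simulated data drawn from the recovered errors, 0, 16, 32 and 36 of 50 loci with true differences of 1, 2, 3 and 4 were recovered for the step from standard to dark aerated, with 6 false calls among 10670. For dark aerated to anoxia the numbers were 2, 23, 33 and 39, with 7 among 10672. Each simulated locus had 1 error for all comparisons, so its 2 estimates differed only where a p-value lay at its set minimum. The false calls there therefore do not measure the cost of taking the smaller estimate. The genes and the lists were chosen with earlier results of these data known. All 10 genes are named, with per list up to 4 genes called in most comparisons and, per measured gene, the 3 loci with the highest r over the groups among loci with a range of at least 1, of which the closest is printed. LCR1, CCM1 and LCIC's and CAH1's neighbours were named after their values were seen. Python 3.11.15, numpy 2.4.6, pandas 2.3.3 and scipy 1.17.1 were used. No sequences are printed, since none was at hand here.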

Additional observations from a re-analysis of the deposited data

Results flagged for a closer look

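The response to aerated darkness differed between the strains for CAH1 and LCIC, by log2 differences (amiCYG12 minus wild type) of 3.30 and 1.71, past the Benjamini-Hochberg threshold of 0.05 over all loci with the smaller of the 2 error estimates. With the larger estimate the adjusted p was 0.1299 for CAH1 and 0.102 for LCIC, and neither was called. Behind these values stood log2 changes in the authors' deposited table of -0.26 and 0.83 in amiCYG12 and of -3.56 and -0.87 in the wild type. LCIA met the same threshold with a difference of 3.27, but it reached 1 FPKM only in the dark aerated amiCYG12 group that enters the difference, and a single error estimate could be had, so the value is given without a reading. The response from dark aerated to anoxia differed for LCIB by -2.04, from log2 changes of -2.90 in amiCYG12 and -0.86 in the wild type in the authors' deposited table. With the larger estimate its adjusted p was 0.293, and it was not called. For CAH1 the wild type started from the highest level of the 6 groups. The part of that level in the difference was not tested.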

How the results depend on the processing

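No paired analysis was possible because the table holds 1 pooled value per group, and for the same reason no run without a library was made. Of the 18 counts of genes called (9 comparisons, 2 directions) 16 stayed within 1.5 times their value under adjustment within each comparison, under a minimum absolute log2 change of 1, and on values rescaled to a common median ratio, the last chosen after seeing the data. The exceptions were the genes lower in aerated darkness in the wild type, 3 in place of 5 under each of these settings (LCIA and CCP2 lost), and the gene higher in amiCYG12 in the standard incubation, 0 in place of 1 (CCP2 lost). Several of the 16 counts were 0 and so could not fall. The minimum log2 change also cost calls within the 16. From standard to anoxia the wild type count went from 7 to 6 (CCP1 lost) and that of amiCYG12 from 8 to 6 (CCP1 and LCIA lost). From dark aerated to anoxia in amiCYG12 it went from 8 to 7 (CCP1 lost). Adjustment within the comparison added LCIA from standard to anoxia in the wild type. With the larger error estimate 0 strain differences of responses were called, in place of 3 and 1. Of these 4, CAH1, LCIC and LCIB lost their calls, and LCIA had no larger estimate and was not tested.

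No called log2 change turned its direction under another pseudocount, rescaling, the sum of transcripts, the median of the chromosome, or, chosen after seeing the data, the sum of a near-identical pair. Directions of values that were not called turned in 11 cases, 4 of them for CCP1, whose sum with CCP2 gave 0.32 and 0.30 between the strains in the standard and dark aerated incubations where CCP1 alone gave -0.62 and -0.63. The median ratio of all loci, which rescaling removes, lay at -0.108 to -0.0011 on the log2 scale. The shares of all loci called stayed within 1.5 times when every tested locus was counted. Pooled values without depth set the limit: no interval can be given for values under 1 FPKM, which occurred in at least 1 group for CAH1, CAH5, LCI1, LCIA, HLA3, CCP1 and CCP2.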
